A study of Arabidopsis thaliana with 2 samples.

Results

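Heat shock transcription factors are the proteins that switch genes on or off through heat shock elements, short DNA stretches built from repeats of the unit nGAAn. Plants sort them into class A, which carry activation domains, class B, which lack them and mostly act as repressors, and class C. The HSFA1 factors of class A start the heat shock response. In unstressed cells they are held back by HSP70 and HSP90 chaperones, and once released they switch on chaperone genes together with further factors such as HSFA2. The series title names the HSFA1 family as partners of NPR1, the salicylic acid co-activator that is mutated in npr1-1.

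The 10 genes described here were chosen by gene ID from the 18345 genes of the deposited table: HSFA1A, HSFA1B, HSFA1D, HSFA1E, HSFA2, HSFA4A and HSFA8 of class A, HSFB1 and HSFB2B of class B, and HSFC1 of class C. All 10 were listed in both libraries. RNA was sequenced from leaves of Arabidopsis thaliana at an age of 2 weeks, kept for 24 h at 4 °C. Light in the long growth days had been 90 µmol per square metre per second and was 40 in the cold. One group was the wild type, Col-0, and the other the mutant npr1-1, each with 1 library, and both had had the same cold treatment. No library of warm plants was analysed here, so no value below measures a response to cold. Levels were deposited as CPM, counts of reads brought to a library total of 1000000. The whole reads behind them numbered 50864103 in Col-0 against 50976521 in npr1-1.

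With 1 library per genotype there was no measure of the spread between plants and no test. Intervals given with a ratio are exact conditional binomial (Clopper-Pearson) 95% intervals on the reads and cover counting error alone. In the whole table, 60.2% of the 13976 genes that reached 5 CPM in either library had an interval of the npr1-1 to Col-0 ratio that left out 1. In whole leaves, fewer cells of a type and less RNA per cell cannot be told apart. All 5 leaf markers were listed, with summed levels of 38613 CPM in Col-0 against 43733 in npr1-1. Of 5 root markers 2 were listed, BGLU23 at 47.2 and 48.8 CPM and WOX5 at 0.845 and 1.20 CPM, and none of the 5 seed and 4 flower markers was. NPR1 had 1120 reads in Col-0 against 954 in npr1-1, which does not check the label, since npr1-1 is a point mutation. NPR1 overlaps the long non-coding RNA AT1G08667 by 214 exon bases on the opposite strand. Its reads are uncertain without a stated use of strand.

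Upstream sequence is shown first for 3 transcription factor genes placed under HSFA1 control in the heat response, because their levels are given below and a perfect heat shock element of 3 units lies within 250 bases of their annotated starts. HSFA7B also has one, but its level was not analysed here. The element searched is GAANNTTC followed directly by NNGAA, and the capitals mark it or its reverse complement. Sequences were read from the RefSeq assembly TAIR10.1, 5′ to 3′ on the strand of the gene, and end at the base before the annotated start. That of HSFA2 was shortened to 158 bases to leave out an annotated exon. The windows are chr2:11135466-11135623 for HSFA2, chr3:19264891-19265140 for HSFA7A, a class A gene outside the 10, and chr5:1601955-1602204 for DREB2A, all on the plus strand.
HSFA2: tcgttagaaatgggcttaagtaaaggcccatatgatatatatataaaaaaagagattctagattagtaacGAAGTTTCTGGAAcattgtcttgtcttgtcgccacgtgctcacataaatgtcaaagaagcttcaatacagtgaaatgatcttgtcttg
HSFA7A: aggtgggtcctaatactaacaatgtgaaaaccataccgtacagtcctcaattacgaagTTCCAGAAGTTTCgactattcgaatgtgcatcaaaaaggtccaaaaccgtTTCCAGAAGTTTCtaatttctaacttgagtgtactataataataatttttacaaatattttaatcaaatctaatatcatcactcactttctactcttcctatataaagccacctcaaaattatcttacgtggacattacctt
DREB2A: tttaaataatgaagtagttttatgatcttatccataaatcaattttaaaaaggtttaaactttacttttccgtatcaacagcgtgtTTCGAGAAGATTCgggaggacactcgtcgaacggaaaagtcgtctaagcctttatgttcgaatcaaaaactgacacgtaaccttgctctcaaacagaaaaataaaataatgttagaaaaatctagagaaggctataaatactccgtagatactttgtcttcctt

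Of the 10 genes HSFA2 alone had such an element, starting 88 bases before its start. Among the windows of 27443 protein-coding genes 0.386% held one. Both shorter forms are palindromes of 2 units, and every 3-unit element holds one of each. GAANNTTC was in the windows of HSFA2 and HSFA4A, against 9.55% of all windows, and TTCNNGAA in those of HSFA1E and HSFA2, against 7.68%. The windows of HSFA4A (chr4:10349903-10350152, minus strand) and HSFA1E (chr3:673178-673427, plus strand) are given with these 2-unit matches in capitals, as the other members with any match.
HSFA4A: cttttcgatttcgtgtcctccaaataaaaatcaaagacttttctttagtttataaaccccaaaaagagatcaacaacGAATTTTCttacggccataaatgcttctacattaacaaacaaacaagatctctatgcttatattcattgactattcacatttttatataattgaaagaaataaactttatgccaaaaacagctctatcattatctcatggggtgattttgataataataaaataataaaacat
HSFA1E: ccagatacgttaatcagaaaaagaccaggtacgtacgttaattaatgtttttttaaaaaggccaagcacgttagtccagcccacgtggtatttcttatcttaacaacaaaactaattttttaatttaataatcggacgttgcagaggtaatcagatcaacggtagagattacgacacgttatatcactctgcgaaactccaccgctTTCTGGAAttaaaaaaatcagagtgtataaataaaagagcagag

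Other motifs were searched on both strands of the same windows. The windows of HSFA1A, HSFA1B, HSFA2 and HSFC1 overlap annotated exons and were searched whole, as were those of all genes. TGACG, the core bound by the TGA factors through which NPR1 acts, was in 0 of the 10 windows and in 18.6% of all. The W box, TTGACC or TTGACT, was in those of HSFA4A and HSFB2B and in 28.4% of all. The TL1 element, CTGAA followed directly by GAAGAA, from which HSFB1 takes its other name TBF1, was in 0 of the 10 and in 0.113% of all. A match is a run of letters and no match says only that these letters are not in this window.

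Among the factors, the difference between the libraries lay in HSFA2, HSFC1, HSFA8 and HSFA4A, which were lower in npr1-1, while the 4 HSFA1 genes and both class B genes were close. Differences are log2(CPM + 1) in npr1-1 minus Col-0, a scale that understates the change of low genes. Of the 9 members past the minimum of 5 CPM, 0 were at least 2-fold apart, against 0.730% of all genes past it, made up of 0.529% lower and 0.200% higher. Their median difference was -0.15, beside -0.05 for all genes past the minimum. At least 1.5-fold lower on this scale was 1 of the 9, HSFC1, against 2.06% of all genes. As a plain ratio of CPM, without the added 1, HSFA8 was also past it, at 1.51-fold lower. On the log2(CPM + 1) scale 6 of the 9 were below 0, against 59.0%. The interval of the ratio lay below 1 for 4 of the 9, against 36.8% of all genes, and held 1 for the other 5. The share below 0 and the share with an interval below 1 are near the background and are no result about the family.

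**Figure D1:**
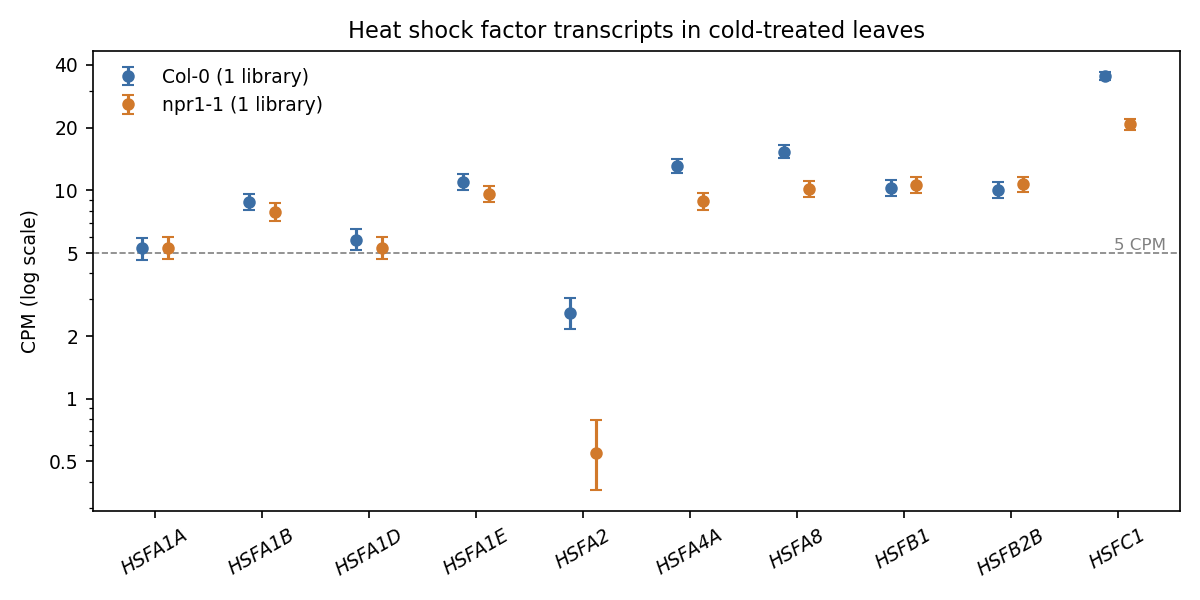
CPM (log axis) of each of the 10 genes in the Col-0 library (blue) and the npr1-1 library (orange), with exact Poisson 95% counting intervals as bars and the 5 CPM minimum dashed. HSFC1 is the highest in both libraries at 35.5 and 20.7 CPM, and HSFA2 is the only gene below 5 CPM.

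HSFA1A, HSFA1B, HSFA1D and HSFA1E encode the activators that trigger the heat response and overlap in function. HSFA1A had 268 reads in Col-0 against 269 in npr1-1. HSFA1B had 448 and 400 reads, HSFA1D 295 and 271 reads, and HSFA1E 559 and 492 reads. The 4 ratios ran from 0.878 for HSFA1E to 1.002 for HSFA1A, and 26.4% of the genes past the minimum had a difference as low as that of HSFA1E or lower. Scaled by transcript length and summed, the 4 genes came to 17.0 CPM per kb in Col-0 and 15.5 CPM per kb in npr1-1. The ratio of these sums was 0.912, with a delta-method 95% counting interval from 0.849 to 0.980. HSFA1B overlaps SYP21 on the opposite strand by 44 exon bases in the reference annotation, and SYP21 stood at 22.3 and 17.9 CPM. No transcript of the 4 had a copy at 90% identity over at least 50% of its length. The nearest pair, HSFA1B and HSFA1E, were 72.5% identical over 1413 bases.

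HSFA2 (AT2G26150, chromosome 2, 11135682 to 11137396, plus strand, TAIR10, as deposited) is an activator that prolongs the heat response and is induced by HSFA1 factors. It had 131 reads in Col-0 against 28 in npr1-1, or 2.58 and 0.549 CPM. It was the lowest of the 10 in both libraries and the one most apart, 4.69-fold lower in npr1-1 with an interval from 3.10 to 7.33. It was below the 5 CPM minimum. Its log2(CPM + 1) difference was -1.21, and over all listed genes with no minimum 0.583% were at least 2-fold lower. The reference annotates 4 transcripts of HSFA2, which counts per gene do not separate.

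HSFA4A (AT4G18880, chromosome 4, 10347582 to 10349562, minus strand) is a class A factor of oxidative stress responses and a substrate of the kinases MPK3 and MPK6. It had 665 reads in Col-0 against 452 in npr1-1, and the interval of the ratio, 0.678, ran from 0.600 to 0.765. HSFA8 (AT1G67970, chromosome 1, 25484699 to 25486462, minus strand), a class A factor known as a redox sensor, had 779 and 518 reads, a ratio of 0.663 from 0.593 to 0.742. Both lay in the lower tail of the whole table: 2.82% of the genes past the minimum had a difference as low as that of HSFA4A or lower, and 2.40% as low as that of HSFA8. Summed per kb, HSFA2, HSFA4A and HSFA8 came to 19.5 CPM per kb in Col-0 and 12.2 CPM per kb in npr1-1. The ratio was 0.626, and its interval, from 0.578 to 0.678, lay below that of the 4 HSFA1 genes. Both intervals cover counting error alone, and how often those of other gene sets lie apart was not tested. The listed class A genes in neither sum had ratios of 0.972 for HSFA5, 0.833 for HSFA4C and 0.866 for HSFA7A, which was below the minimum. The lower sum therefore describes HSFA2, HSFA4A and HSFA8 only, and not class A outside HSFA1. The nearest transcript to HSFA4A was that of HSFA4C, at 79.9% identity over 591 bases.

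HSFB1 (AT4G36990, chromosome 4, 17440177 to 17442151, plus strand), a repressor-type factor also known as TBF1, is required for the shift from growth to defence and is controlled in translation by upstream open reading frames, of which the reference marks 1. It had 521 reads in Col-0 against 541 in npr1-1. HSFB2B (AT4G11660, chromosome 4, 7042630 to 7044708, plus strand), a repressor that together with HSFB1 damps HSFA2 and other heat-inducible factor genes, had 511 and 545 reads. The ratios were 1.036, from 0.917 to 1.171, and 1.064, from 0.941 to 1.203. Both intervals held 1, and neither gene was lower in npr1-1. Under other scalings both differences stayed above 0. HSFB2B overlaps AT4G05910, a long non-coding RNA, by 352 exon bases and AT4G11670 by 155, both on the opposite strand, so its reads are uncertain without a stated use of strand. AT4G11670 stood at 28.0 and 27.1 CPM, and AT4G05910 was not analysed here. Counts of RNA say nothing of how much HSFB1 protein was made.

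HSFC1 (AT3G24520, chromosome 3, 8941066 to 8942874, plus strand), the single class C factor of Arabidopsis, is known as an early cold-induced transcription factor whose induction runs in parallel with that of the CBF factors. It had 1804 reads in Col-0 against 1057 in npr1-1, or 35.5 and 20.7 CPM. Its CPM ratio was 0.585, from 0.541 to 0.631, and its log2(CPM + 1) difference was -0.75, a value that 1.07% of the genes past the minimum reached or went below. The long non-coding RNA AT3G24518 lies opposite HSFC1 and overlaps 1668 exon bases of its transcript of 1725 bases. The use of strand in the counting is not given in the sources used here, so reads of HSFC1 and of this antisense RNA cannot be told apart.

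**Figure D2:**
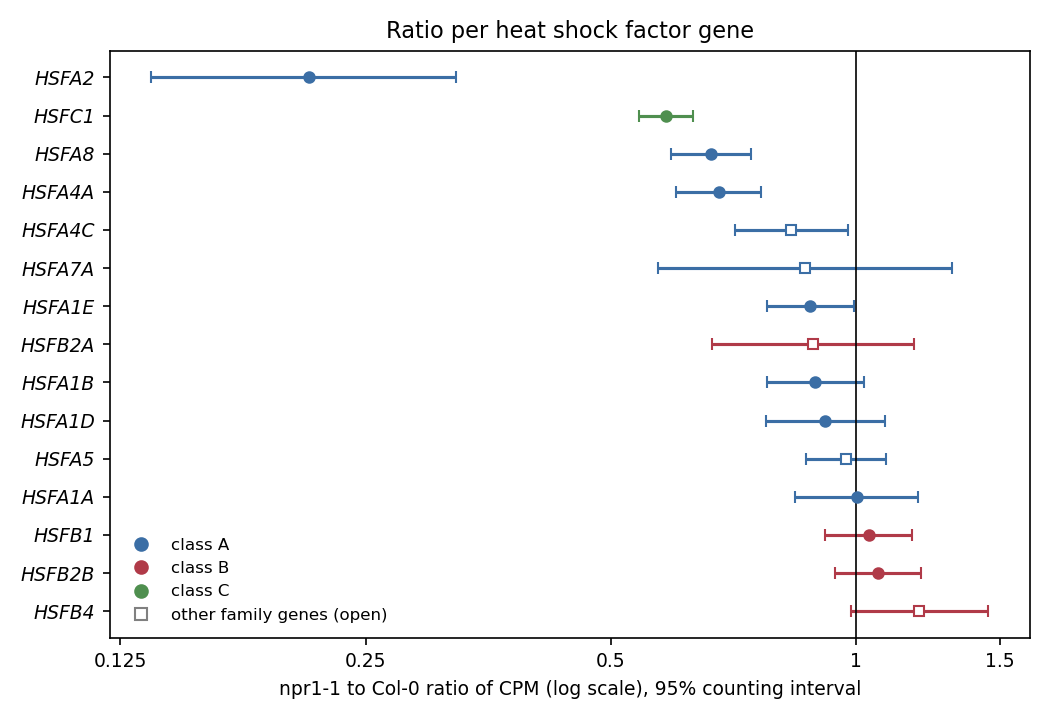
Ratio of CPM in npr1-1 to Col-0 (log axis) for the 15 heat shock factor genes in the table, with exact 95% counting intervals, 1 library per genotype. Filled circles are the 10 genes described here and open squares the other 5, coloured by class. HSFA2, HSFC1, HSFA8 and HSFA4A lie farthest left, and HSFB1 and HSFB2B lie just right of 1.

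The order of levels was compared per kb of transcript. The places of HSFC1 and HSFB2B carry the uncertainty from the opposite-strand overlaps given above. In Col-0 HSFC1 was highest at 20.6 CPM per kb, followed by HSFA8 at 10.8 and HSFA4A at 6.87. HSFA1E at 5.90 and HSFB1 at 5.74 were within counting error of each other, as were HSFB2B at 5.05 and HSFA1B at 4.81, and HSFA1A at 3.21 and HSFA1D at 3.09. HSFA2 was last at 1.85 CPM per kb. In npr1-1 HSFC1 and HSFA8 were still the highest 2, at 12.02 and 7.16 CPM per kb. HSFB1 at 5.95 came next, and from there each neighbour was within counting error of the one after it through HSFB2B at 5.37, HSFA1E at 5.18, HSFA4A at 4.66 and HSFA1B at 4.28. By value alone HSFA4A stood above the class B genes in Col-0 and below them in npr1-1. No interval was taken for HSFA4A against either class B gene. In Col-0 the median gene past the minimum had 14.1 CPM per kb, and HSFC1 alone of the 10 was above it. In npr1-1 that median was 13.6 CPM per kb, and none of the 10 was above it. Genes left out by the minimum do not enter these medians.

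The balance of repressor-type to activator genes was the comparison for which the members were chosen. Summed per kb, the 7 class A genes came to 36.5 CPM per kb in Col-0 and 27.7 CPM per kb in npr1-1, a ratio of 0.759 from 0.720 to 0.801. The 2 class B genes came to 10.8 and 11.3 CPM per kb, a ratio of 1.049 from 0.963 to 1.143. The class B to class A balance was therefore 0.296 in Col-0 and 0.408 in npr1-1, higher in npr1-1 by a factor of 1.38 with a counting interval from 1.25 to 1.53. Leaving out each class A gene in turn gave factors from 1.31 to 1.43. With the 4 HSFA1 genes alone as the class A part the factor was 1.15, from 1.03 to 1.29. Of the length-scaled total of the 10 genes, class A made up 53.8% in Col-0 and 54.3% in npr1-1, class B 15.9% and 22.2%, and HSFC1 30.3% and 23.54%. The total itself was 67.9 and 51.1 CPM per kb, and transcript abundance is not protein activity. The class B sum holds HSFB2B and the total also holds HSFC1, whose reads are uncertain for the opposite-strand overlaps given above.

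**Figure D3:**
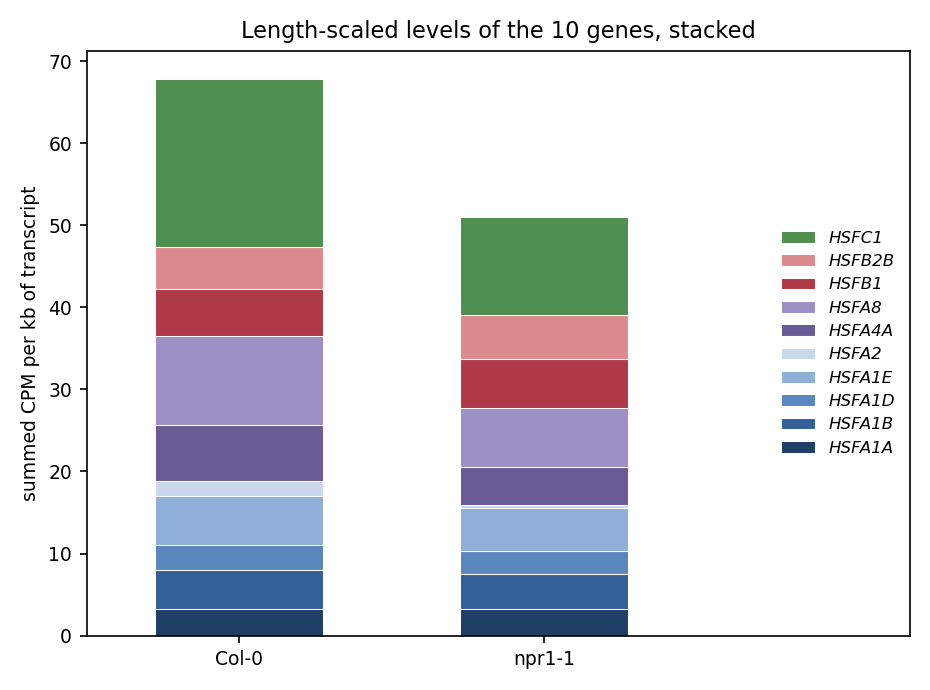
Levels of the 10 genes per kb of transcript (CPM per kb), stacked, in the 1 library of each genotype. The stack is 67.9 CPM per kb in Col-0 and 51.1 in npr1-1, and the HSFC1, HSFA8, HSFA4A and HSFA2 segments are shorter in npr1-1, that of HSFA2 going from 1.85 to 0.395 CPM per kb. Reads of HSFC1 cannot be told apart from those of the antisense RNA AT3G24518.

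Of the other 11 genes of the family 5 were listed, of which 2, HSFA4C and HSFA5, passed the minimum. None of the 5 was 2-fold apart, so this count is no result about them. Beside it stand 0.730% of all genes past the minimum, and 153 of all 18345 genes with no minimum. HSFA5, a class A member that represses HSFA4 factors by pairing with them, had 627 reads in Col-0 against 611 in npr1-1. HSFA4C had 345 and 288 reads, HSFB4 197 and 236, HSFB2A 107 and 95, and HSFA7A, whose upstream window holds 2 of the 3-unit elements shown above, 53 and 46. With all listed class A and class B genes, 10 and 4 of them, the balance of class B to class A differed by a factor of 1.33. HSFA3, HSFA6A, HSFA6B, HSFA7B, HSFB3 and the seed factor HSFA9 were not analysed here.

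Transcription factor genes placed downstream of HSFA1, a list that shares HSFA2, HSFB1 and HSFB2B with the members, were close between the libraries where they passed the minimum. Of 9 listed 5 passed, 0 of them 2-fold apart, beside 0.730% of all genes, so this count is no result about the list. Their median was 0.08, or -0.10 with all 9. HSFA2 was left out by the minimum. With no minimum it was the 1 of the list at least 2-fold lower, beside 0.583% of all genes. DREB2A, an activator of drought and heat genes whose upstream element is printed above, had 938 reads in Col-0 against 799 in npr1-1, and its paralogue DREB2C 314 and 409 reads. MBF1C, a co-activator of the heat response below the minimum, had 167 and 87 reads. It overlaps genes on the opposite strand, among them ALDH2C4 at 130 and 112 CPM, so its reads are uncertain.

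Some of the chaperone genes that heat shock factors switch on were lower in npr1-1 by more than any of the factors. Of 23 listed chaperones 18 were in the table and 10 passed the minimum, and 7 of these 10 were at least 2-fold lower in npr1-1, beside 0.529% of all genes, and none higher. The median was -3.05. This list was drawn up with earlier results of these data known. The 7 were HSP90-1, HSP17.6II, HSP17.6A, AT1G07400, HSP70, HSP101 and HOP3. HSP17.6II, HSP17.6A, AT1G07400 and HOP3, 4 of the 7, passed the minimum through Col-0 alone, where they are high, so the count and the median are descriptions that depend on the minimum. HSP90-1, HSP70 and HSP101 were above it in both libraries, HSP101 only just in npr1-1, at 5.16 CPM. HSP90-1 had 11379 reads in Col-0 against 526 in npr1-1, HSP70 31732 and 3447, and HSP101 2115 and 263. HOP3, a co-chaperone that links HSP70 and HSP90, had 569 reads in Col-0 against 31 in npr1-1, and was 18.4-fold lower. The remaining 3, the mitochondrial HSP23.5 and the organellar disaggregases CLPB3 and CLPB4, had log2 differences from -0.50 to -0.24. Of the 8 below the minimum, 3 were higher in npr1-1: HSP18.2 with 117 and 125 reads, HSP15.7 with 18 and 27, and HSP70T-2 with 66 and 97. The others were lower, among them HSP17.4 with 59 and 10 reads, AT2G29500 with 57 and 16, and AT1G59860 with 54 and 26. With these 8 included the median was -0.59, so its size rests on which members pass. Without a stated use of strand the reads of HOP3, HSP101, HSP17.4 and CLPB3, like those of DREB2A, GOLS1, HSC70-3, MPK3, MPK6 and DAD1 in the lists beside it, are uncertain, since each overlaps an annotated gene on the opposite strand. For HOP3 that gene is PME1, at 8.91 CPM in Col-0 against 10.3 in npr1-1.

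Of 6 listed cofactors of the heat response 5 passed the minimum, with a median of -0.37. FKBP65 was the 1 that was 2-fold lower, beside 0.529% of all genes, with 880 reads in Col-0 against 55 in npr1-1. At 17.3 and 1.08 CPM it passed the minimum through Col-0 alone, where it is high, so this count is a description only. J3, a DnaJ homologue at the list median, had 37168 and 28811 reads. FKBP62, which binds HSP90 and HSFA2, had 17200 and 9867 reads. GOLS1, a galactinol synthase gene under heat shock factor control, also has a 3-unit element upstream and had 4705 and 5136 reads. Of 76 listed genes with a 3-unit element in their window 54 passed the minimum. HSFA2, HSP17.4 and HSFA7A, whose reads are given above, were among those it left out. Among the 54, 1 was 2-fold lower (1.85%) and the median was -0.07. That gene passed through Col-0 alone, at 19.4 CPM against 3.10 in npr1-1. The chaperones named above as at least 2-fold lower, and FKBP65, had no 3-unit element in their windows. The 54 genes therefore do not stand for them. The median of the 11711 genes past the minimum with neither a 3-unit nor a 2-unit match was -0.05, and 60 of them (0.512%) were 2-fold lower.

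Genes for proteins that bind or modify the factors differed by less than 2-fold apart from FKBP65. All 16 listed passed the minimum and 14 were below 0, beside 59.0% of all genes. The 1 that was 2-fold lower is the same FKBP65 counted among the cofactors, which passed the minimum through Col-0 alone. It stands beside 0.529% of all genes, and the median of the list was -0.37, against -0.05 for all genes. The constitutive chaperones that hold HSFA1 factors inactive were among them: HSC70-1 stood at 5494 CPM in Col-0 against 4649 in npr1-1, HSC70-3 at 3722 and 2274 CPM, and HSP90-2 at 2108 and 1375 CPM. HSP90-2, HSP90-3 and HSP90-4 are near copies, so their reads are uncertain. MPK3 stood at 49.3 and 32.2 CPM, while MPK6 stood at 34.8 and 32.996 CPM. HSBP, which binds and restrains heat shock factors, stood at 43.6 and 46.9 CPM, and BIN2, a kinase that lowers HSFA1D activity, at 63.6 and 66.5 CPM. BIN2 overlaps AT4G18720, at 0.393 and 0.549 CPM, by 158 exon bases on the same strand, so its reads are uncertain.

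Endoplasmic reticulum genes of the secretory pathway are the class in which the TL1 element was described, although the searched letters were in none of the listed genes' windows. Of 12 past the minimum 11 were below 0, beside 59.0% of all genes, and 0 were 2-fold apart, beside 0.730%. The median was -0.39, against -0.05 for all genes. CRT3, a calreticulin needed for immune receptors, had 1932 reads in Col-0 against 1170 in npr1-1, SDF2 had 1424 and 1071, and DAD1 had 1349 and 1406.

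**Figure D4:**
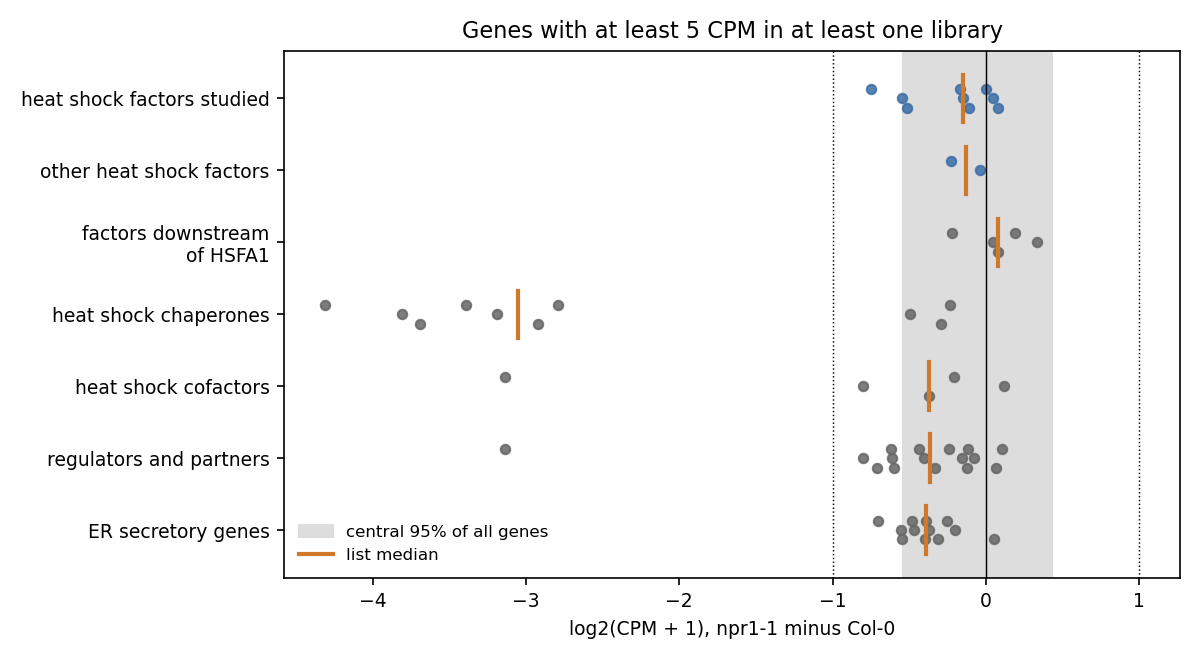
Difference of log2(CPM + 1), npr1-1 minus Col-0, for each gene that reached 5 CPM in either library, by list, with list medians in orange, 2-fold dotted and the central 95% of all genes, from -0.54 to 0.43, in grey. The heat shock factors lie between -0.75 and 0.08, and 7 of the 10 chaperones lie between -4.31 and -2.79.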

How the data were processed

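Leaf RNA of 1 Col-0 and 1 npr1-1 library was analysed, grouped by the genotype label. The authors deposited CPM per gene with coordinates and transcript length, per the file headers; decimals are written as commas. The submitters' processing notes name TopHat2, DESeq2 and TAIR10 with no role. How reads were counted, whether by strand, and whether plants were pooled is not given in the sources used here. Each value was a whole multiple of 1 read (100% within 0.01), which gave the reads.

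Differences were log2(CPM + 1), npr1-1 minus Col-0, for genes reaching 5 CPM in either library, and 2-fold was the threshold. No test was run. Intervals of sums used the delta method. The deposited models were compared with RefSeq TAIR10.1: of the 18148 genes with a coding sequence there, 99.5% had it inside the deposited span, and starts often differ, so upstream windows follow RefSeq alone. Copies were sought with BLAST+ 2.17.0. Python 3.11.15, numpy 2.4.6, pandas 2.3.3, scipy 1.17.1 and matplotlib 3.10.9 were used. The calculation was tested on simulated data.

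The members and lists were chosen with earlier results of these data known. The genes named were all members and listed family genes, NPR1, and from each list the 2-fold members, the median and up to 4 with the largest differences. Named outside that rule, after their values were seen, were HSP18.2, HSP15.7, HSP70T-2, HSP17.4, AT2G29500, AT1G59860, GOLS1, MBF1C, DREB2A, SDF2, DAD1, HSBP, BIN2, MPK3, MPK6, HSC70-1, WOX5, near copies and overlapping partners.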

Additional observations from a re-analysis of the deposited data

How the results depend on the processing

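No paired analysis was possible because each genotype has 1 library. The number of factors at least 2-fold apart, 0 of 9, became 1 with a minimum of 1 CPM or none, which lets in HSFA2, and 1 at 1.5-fold on the log2(CPM + 1) scale, which is HSFC1; as a plain CPM ratio HSFA8, at 1.51-fold lower, also passes. The number of genes at least 2-fold apart, 102, became 61 with a pseudocount of 5 and 415 at 1.5-fold. The median chaperone difference of -3.05 became -3.60 with a pseudocount of 0.1, -1.86 with one of 5, -0.69 with a minimum of 1 CPM, -0.59 with no minimum and -2.51 as a mean; by construction the minimum changes which low genes enter and the pseudocount how far they shrink, while the mean is another summary of the same genes. The class B to class A factor of 1.38 became 1.15 with HSFA1 genes alone, a choice made after seeing the data, as was leaving out each class A gene. Of 40 values of single factors under other pseudocounts and scalings 2 moved by more than their counting interval, both of HSFA2 (-2.04 and -0.45 with pseudocounts of 0.1 and 5), and 0 changed sign. Median-ratio and trimmed-mean scaling moved the median of all genes from -0.05 to -0.01. The spread between plants was not measured, and HSFA2 rests on 28 reads in npr1-1.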
